A study of Mus musculus with 4 samples.

Results

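Collagens are secreted proteins built from 3 chains wound into a triple helix, and each chain is the product of its own gene. Fibril-forming types give tissues tensile strength, type IV forms the sheet-like network of basement membranes, type VI forms beaded microfilaments around cells, and fibril-associated types such as XII decorate the surface of fibrils. The chains are hydroxylated, folded and trimerised in the endoplasmic reticulum, trimmed and crosslinked outside the cell, and cut by collagenases and gelatinases. In colon tumours most interstitial collagen is made by stromal fibroblasts, while CT26, a mouse colon carcinoma line, was measured here as cells from culture.

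The genes described are all collagen chain genes on the array, taken by their symbol alone (Col, a number, the letter a, a number), with no use of their values. There were 44 among 22180 named genes, and all 44 matched a gene in the RefSeq table for GRCm38.p6. RNA of CT26 cells was hybridised to 4 Affymetrix Mouse Gene 2.0 ST arrays, 1 per group. The DMSO group received solvent for 24 h, and the Senexin B group received 5 µM of Senexin B, an inhibitor of the Mediator kinases CDK8 and CDK19, for the same time. The pLKO.1 group carried that lentiviral vector, and the shCDK8 group is labelled as the CDK8 hairpin line; no drug is named for this pair. Whether the lines are clones or pools is not given in the sources used here. With 1 array in each group no difference could be tested, the number of arrays limits the precision, and each value below is a log2 level or a difference of log2 levels between 2 arrays. A probe set's brightness depends on its probes, so levels are compared between arrays and not between genes.

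Array medians over 41345 probe sets lay between 5.99 and 6.04. Cdk8 stood at 10.79 in pLKO.1 and 9.07 in shCDK8. Of the epithelial markers Epcam, Krt19 and Vil1 were under the expression limit explained next on all 4 arrays, while Krt8, Krt18, Cdh1, Cdx2 and Krt20 reached it. Krt20 differed by -1.44 in shCDK8 minus pLKO.1, and by -0.69 between the controls (pLKO.1 minus DMSO). The other 4 that reached the limit lay above 0 in shCDK8 minus pLKO.1, from 0.0040 for Krt8 to 0.41 for Cdx2. Of 4 measured leukocyte markers Ptprc, Adgre1 and Cd3e were under it on all 4, while Cd68 stood between 8.82 and 9.15. Of 5 endothelial markers Tek and Emcn were under it on all 4, while Pecam1, Cdh5 and Kdr reached it on at least 1 array, with highest levels of 6.14, 6.15 and 6.16. Of 6 smooth muscle and pericyte markers 4 reached it, among them Acta2, which was 0.93 higher in shCDK8 than in pLKO.1. In the same comparison Myh11 differed by 0.10, Cnn1 by -0.09 and Des, under the limit on 3 arrays, by 0.36.

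A gene was counted as above the limit where its level on at least 1 array was 5.98 or more on the log2 scale, which is the 40th percentile over the values of all genes. This is a convention, since no detection call per probe set was used. Of the 44 collagen genes 37 (84.1%) reached it, beside 64.3% of all named genes, and 33 did so on every array. The 7 under it were Col4a3, Col6a4, Col6a5, Col10a1, Col11a1, Col14a1 and Col19a1, with levels between 5.27 and 5.97. Col6a5 lay just outside with a highest level of 5.97, and Col28a1 just inside with 6.02. A limit taken from 1373 olfactory and vomeronasal receptor genes, which are not expected in these cells, was 6.06 and kept 36 collagen genes.

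**Figure D1:**
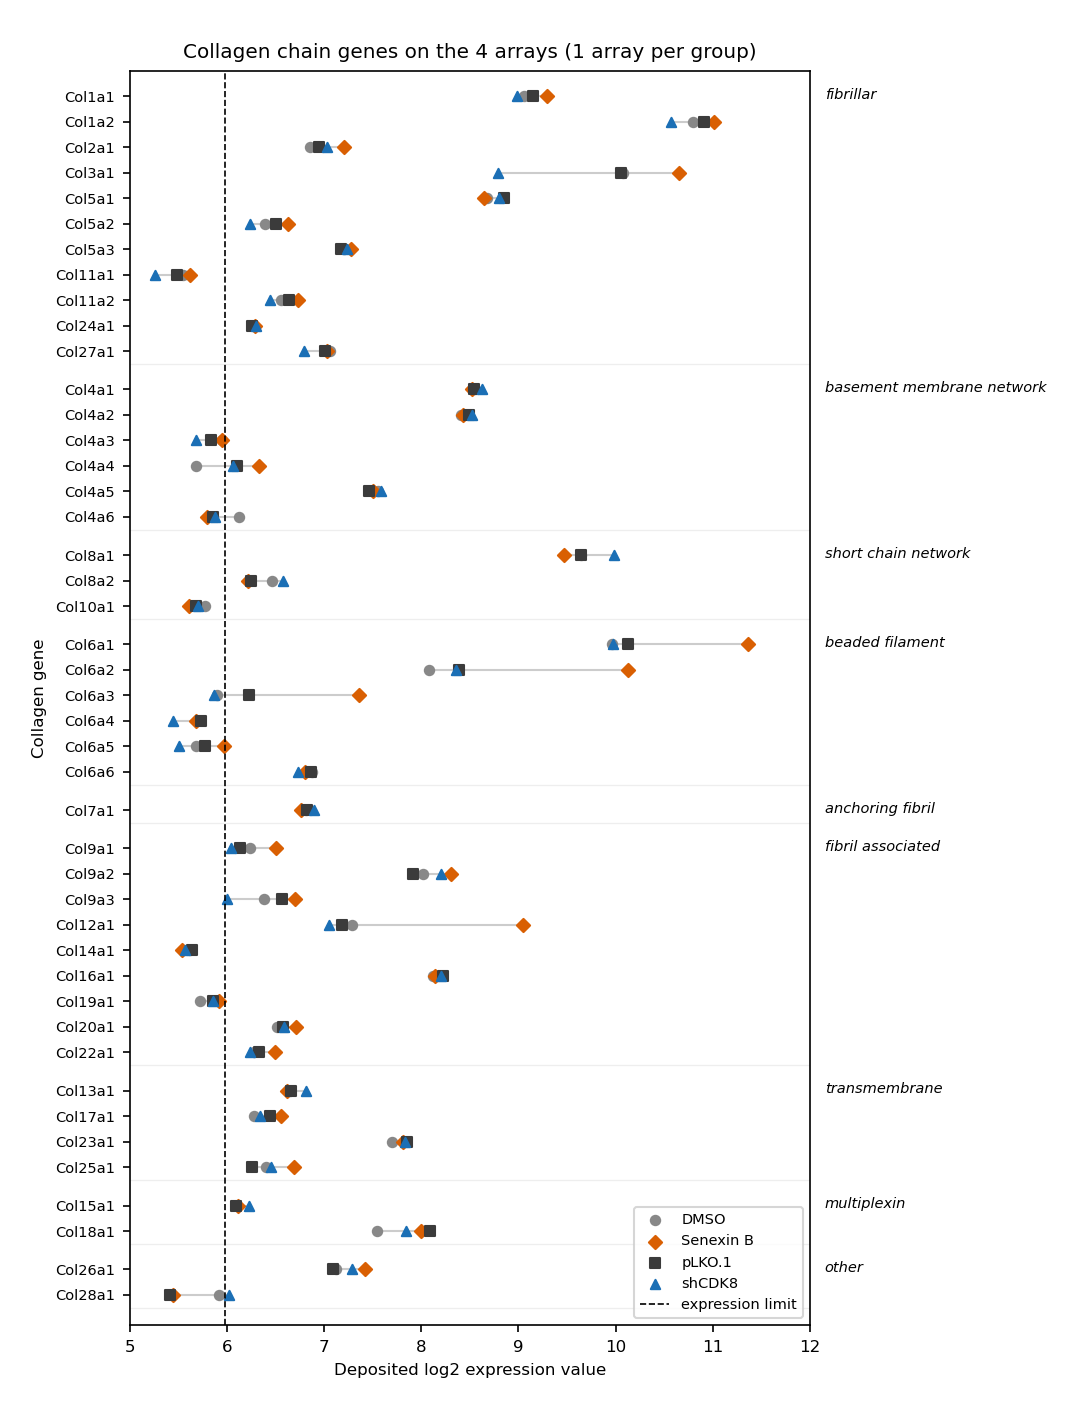
Deposited log2 level (horizontal axis) of each of the 44 collagen genes on the 4 arrays, grouped by structural class, with 1 point per array, a grey line over the range and a dashed line at the limit of 5.98. The Senexin B points of Col6a1, Col6a2, Col6a3 and Col12a1 lie far right of the other 3, and the shCDK8 point of Col3a1 lies far left.

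Senexin B was set against DMSO to see how collagen genes differ when the Mediator kinases are inhibited. All 3 chains of the classical type VI trimer and the chain of type XII were at least 2-fold higher with Senexin B than with DMSO, and no collagen gene was 2-fold lower. These 4 of 37 genes are 10.8% of the collagen genes above the limit, beside 0.687% of all 14272 genes above it for 2-fold higher and 0.252% for 2-fold lower. Col6a2 was the 12th highest of the 14272 differences, Col12a1 the 22nd, Col6a3 the 36th and Col6a1 the 42nd. These genes had been seen to differ in earlier work on the same arrays, so the count is a description.

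Col6a1, which encodes the alpha 1 chain of type VI, stood at 9.96 in DMSO, 11.36 in Senexin B, 10.13 in pLKO.1 and 9.97 in shCDK8. The Senexin B array was thus apart from 3 arrays that lay close together. The difference from DMSO was 1.40, or 2.64-fold. A dimmer probe set of the same gene stood at 6.58, 7.47, 6.68 and 6.50 in the same order of arrays, a difference of 0.88 that falls short of 2-fold. A further probe set assigned to Col6a1 together with other genes was not used.

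Col6a2 encodes the alpha 2 chain. Its level was 8.08 in DMSO, 10.13 in Senexin B, 8.39 in pLKO.1 and 8.36 in shCDK8, so that again 1 array stood above the others. With 2.04, or 4.13-fold, it had the largest difference of the collagen genes. Col6a3 encodes the long alpha 3 chain, and stood at 5.90 in DMSO, 7.36 in Senexin B, 6.23 in pLKO.1 and 5.87 in shCDK8. The DMSO and shCDK8 levels were under the limit, and with levels under the limit raised to it the difference of 1.45 became 1.38. The remaining type VI chains, which can take the place of alpha 3, did not share the pattern: Col6a4 and Col6a5 were under the limit, and Col6a6 differed by -0.07.

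Col12a1 encodes the chain of type XII, which bridges fibrils and other matrix components. Its level was 7.28 in DMSO, 9.04 in Senexin B, 7.19 in pLKO.1 and 7.05 in shCDK8. The difference of 1.76, or 3.38-fold, was followed among the other fibril-associated genes above the limit by 0.33 for Col9a3, 0.29 for Col9a2 and 0.26 for Col9a1, subunits of cartilage type IX. All 7 genes of that class above the limit lay above 0, down to 0.02 for Col16a1, beside 44.8% of all genes. Against pLKO.1 6 did so, beside 49.8% of all genes, and counts over 7 genes carry little weight.

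Both control arrays served as a reference for Senexin B. The 2 comparisons share the Senexin B array, so the second is not an independent repeat. Against pLKO.1 the 4 genes were still past 2-fold, with 1.85 for Col12a1, 1.74 for Col6a2, 1.23 for Col6a1 and 1.13 for Col6a3. Of all genes above the limit 0.483% were 2-fold higher against both controls. Between the controls (pLKO.1 minus DMSO) the same genes differed by -0.10, 0.31, 0.17 and 0.32. No collagen gene was 2-fold apart between the controls in either direction, beside 0.0841% higher and 0.014% lower of all genes.

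**Figure D2:**
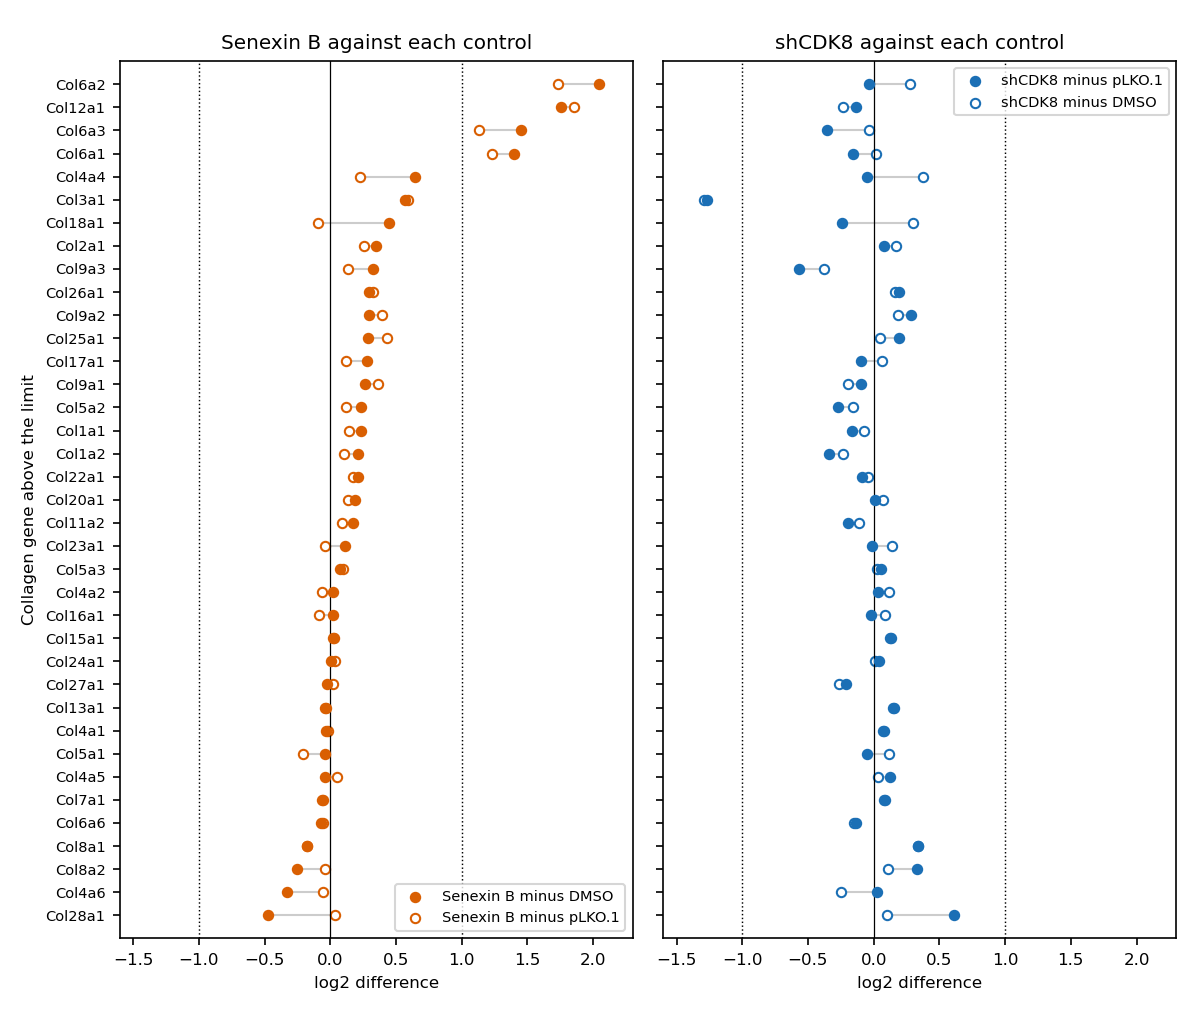
Log2 difference (horizontal axis) of each of the 37 collagen genes above the limit, for Senexin B (left, orange) and shCDK8 (right, blue), with filled points against the pair's own control, open points against the other control and dotted lines at 2-fold. Col6a1, Col6a2, Col6a3 and Col12a1 lie past 2-fold with either control on the left and Col3a1 on the right, while Col4a4, Col18a1 and Col28a1 depend on the control used.

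The promoters of the type VI genes Col6a1, Col6a2 and Col6a3, which were higher together with Senexin B, are shown so that they can be compared. That of Col3a1, the gene that stood out in the hairpin line, is shown beside them. Each run gives, 5′ to 3′ on the gene's strand, the 250 bases before the annotated start in RefSeq (GRCm38.p6), at chr10:76726045-76726294 (minus strand) for Col6a1, chr10:76623631-76623880 (minus strand) for Col6a2, chr1:90843972-90844221 (minus strand) for Col6a3 and chr1:45311288-45311537 (plus strand) for Col3a1. For Col6a2, with 2 starts in the table, the outer start was taken. Capitals mark matches on either strand to the CCAAT box, the core of the GC box (GGGCGG), the core promoter element TATAAA, the motif TGANTCA bound by AP-1, or CAGAC, part of the motif bound by SMAD proteins.
Col6a1: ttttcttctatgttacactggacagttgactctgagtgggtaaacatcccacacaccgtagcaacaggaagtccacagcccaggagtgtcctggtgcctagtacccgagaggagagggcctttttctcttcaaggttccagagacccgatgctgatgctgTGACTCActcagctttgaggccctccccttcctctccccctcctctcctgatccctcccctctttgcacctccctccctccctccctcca
Col6a2: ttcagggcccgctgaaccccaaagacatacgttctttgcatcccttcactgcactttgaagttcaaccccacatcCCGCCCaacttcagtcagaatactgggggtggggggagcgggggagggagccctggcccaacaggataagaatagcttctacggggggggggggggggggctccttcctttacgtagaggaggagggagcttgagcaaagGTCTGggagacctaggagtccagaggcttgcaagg
Col6a3: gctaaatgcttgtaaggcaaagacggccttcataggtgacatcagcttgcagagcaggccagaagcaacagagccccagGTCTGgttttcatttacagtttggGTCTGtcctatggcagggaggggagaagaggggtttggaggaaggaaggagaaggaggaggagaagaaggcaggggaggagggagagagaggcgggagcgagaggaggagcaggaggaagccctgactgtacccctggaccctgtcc
Col3a1: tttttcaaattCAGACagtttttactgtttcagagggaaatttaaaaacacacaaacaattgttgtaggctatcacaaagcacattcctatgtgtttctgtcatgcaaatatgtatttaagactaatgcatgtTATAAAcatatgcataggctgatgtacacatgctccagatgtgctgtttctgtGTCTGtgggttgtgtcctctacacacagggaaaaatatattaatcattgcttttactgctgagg

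None of the 5 motifs was found in all 3 type VI promoters. Col6a1 held TGANTCA at 1 place, 90 bases before the start. That motif is its own reverse complement and was found in 6.87% of 27018 promoters and in 1 of 35 collagen promoters. Col6a2 held GGGCGG 175 bases before the start, and CAGAC 35 bases before it. Col6a3 held CAGAC at 171 and 147 bases. CAGAC occurred in 42.2% of all promoters and 42.9% of the collagen promoters. Col3a1 held TATAAA at 117 bases, a motif found in 13% and 14.3%, and CAGAC at 239 and 64 bases. CCAAT was found in 34.5% of all and 34.3% of collagen promoters, and GGGCGG in 32.9% and 60%. A match describes letters only and is not evidence of binding. The table held no promoter for Col12a1.

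Col6a1 and Col6a2 are neighbours in the genome. Among the 5 nearest genes above the limit on each side of Col6a1, taken in RefSeq order, the 8 that are not type VI or other collagen genes differed by -0.36 to 0.31 with Senexin B. Of the 10 around Col6a3 none was 2-fold apart, with a range of -0.29 to 0.79. The same held for the 10 around Col12a1, with a range of -0.32 to 0.44. Of all genes above the limit 0.687% were 2-fold higher and 0.252% 2-fold lower, so these counts say little about the surroundings. The neighbouring genes were looked up after the values of the collagens were known.

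The remaining collagen genes lay nearer to 0 with Senexin B. In all, 26 of 37 (70.3%) were above 0 beside 44.8% of all genes, and the median difference was 0.19 beside -0.03 for all genes above the limit. Against pLKO.1 25 (67.6%) were above 0 beside 49.8%, and the median was 0.10 beside -0.0009. Without the type VI chains Col6a1, Col6a2 and Col6a3 and without Col12a1, a choice made after seeing the data, the median against DMSO was 0.11 over 33 genes. At 1.5-fold 5 genes (13.5%) were higher beside 2.35% of all genes, the fifth being Col4a4, a chain of the type IV network found in kidney and inner ear. Col4a4 stood at 5.69 in DMSO, 6.33 in Senexin B, 6.11 in pLKO.1 and 6.06 in shCDK8. Here the DMSO array was the low one, with a level under the limit. The difference of 0.65 became 0.36 with that level raised to the limit, and against pLKO.1 it shrank to 0.22, both short of 1.5-fold. Col18a1, the source of endostatin, had a similar pattern with 7.55 in DMSO and 7.99, 8.09 and 7.85 on the other 3, so its difference of 0.45 was -0.09 against pLKO.1.

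The main fibril-forming chains were 0.57 (Col3a1), 0.24 (Col5a2), 0.23 (Col1a1) and 0.21 (Col1a2) higher with Senexin B, and Col5a1 differed by -0.04. A dimmer probe set of Col5a1 gave 0.32, so its sign depended on the probe set. The widely expressed basement membrane pair Col4a1 and Col4a2, which share a promoter region and form 1 trimer, differed by -0.03 and 0.02. Between the lowest and the highest of the 4 arrays these type IV genes spanned 8.52 to 8.62 and 8.41 to 8.53. Col8a1 and Col8a2, chains of the type VIII network, were lower by small amounts, at -0.18 and -0.25. The transmembrane collagens Col13a1, Col17a1, Col23a1 and Col25a1 lay between -0.03 and 0.29, and the anchoring fibril gene Col7a1 at -0.06.

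The hairpin line was set against the vector line to see how collagen genes differ with less Cdk8. Col3a1, the chain of the type III fibrils found with type I in soft tissues, was the 1 collagen gene at least 2-fold lower, and none was 2-fold higher. That is 2.7% of 37 genes, beside 0.322% of all genes for 2-fold lower and 0.196% for 2-fold higher, and a share that rests on 1 gene carries little weight. Col3a1 stood at 10.08 in DMSO, 10.65 in Senexin B, 10.05 in pLKO.1 and 8.79 in shCDK8. The controls nearly coincided, with Senexin B above them and shCDK8 well below. The difference from pLKO.1 was -1.27, or 2.40-fold lower, and from DMSO -1.29, and it was the 17th lowest of the 14272 differences. Of all genes 0.189% were 2-fold lower against both controls, in comparisons that share the shCDK8 array.

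Col6a1, Col6a2, Col6a3 and Col12a1 did not mirror the inhibitor in the hairpin line. Differences from pLKO.1 were -0.16 for Col6a1, -0.04 for Col6a2, -0.36 for Col6a3 and -0.14 for Col12a1. From DMSO they were 0.01, 0.27, -0.04 and -0.23. The signs thus depended on the control for Col6a1 and Col6a2. The contrast between the inhibitor and the hairpin was not tested, as each rests on 1 pair of arrays.

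**Figure D3:**
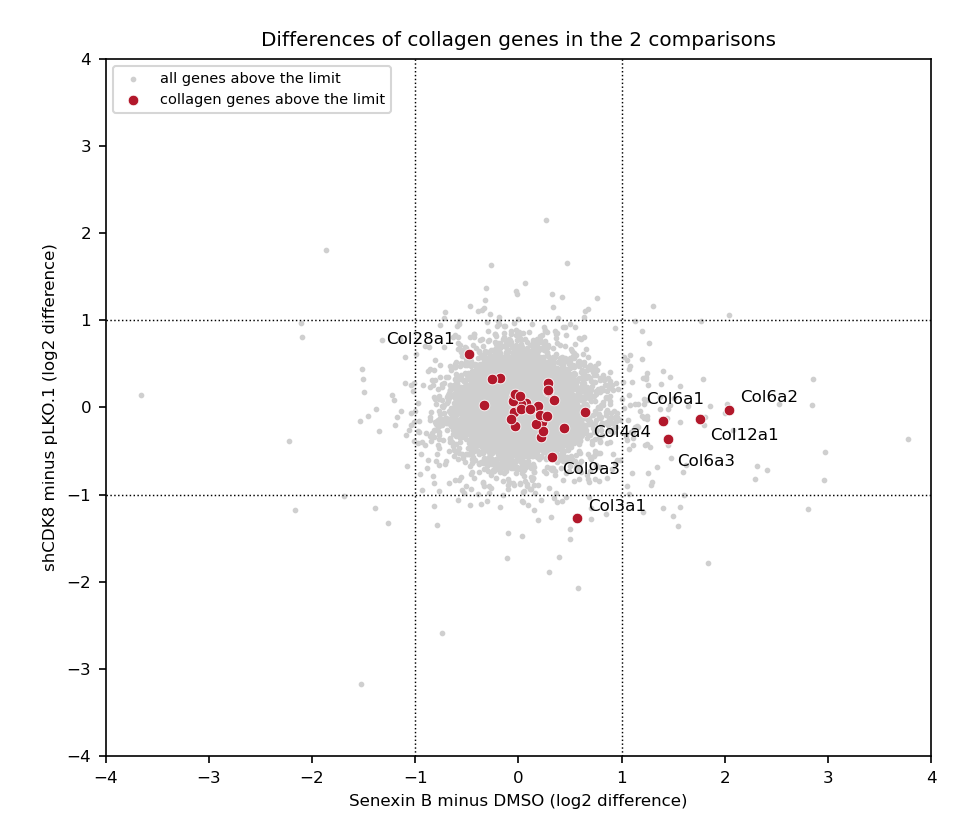
Log2 difference for Senexin B minus DMSO (horizontal axis) against shCDK8 minus pLKO.1 (vertical axis), which have no array in common, for 37 collagen genes (red) and all 14272 genes above the limit (grey), with dotted lines at 2-fold. Col6a1, Col6a2, Col6a3 and Col12a1 lie to the right, between -0.36 and -0.04 on the vertical axis, and Col3a1 lies below at 0.57 and -1.27.

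Other collagen genes differed less in shCDK8. The median over the 37 was -0.02 beside 0.0038 for all genes, and 17 (45.9%) lay above 0 beside 50.8% of all. Against DMSO the median was 0.06 beside -0.01 for all genes, and 24 (64.9%) lay above 0 beside 47.5%, so the side of 0 depended on the control. At 1.5-fold Col28a1 was the 1 higher gene, where 1.67% of all genes were higher, and Col3a1 the 1 lower gene, where 1.85% were lower. Col28a1, which encodes a collagen known from peripheral nerve, stood at 5.92 in DMSO, 5.45 in Senexin B, 5.41 in pLKO.1 and 6.02 in shCDK8. It was under the limit on 3 arrays, and its difference of 0.61 became 0.05 with low levels raised to the limit. Col9a3 was lower by nearly 1.5-fold, at -0.57, from 6.57 in pLKO.1 to a level just above the limit in shCDK8. Col8a1 and Col8a2 were 0.34 and 0.33 higher, Col1a2 differed by -0.34, Col5a2 by -0.27 and Col1a1 by -0.16. Of 10 fibril-forming genes above the limit 7 lay below 0, with a median of -0.18, and against DMSO 6 did, with a median of -0.09.

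The second probe set of Col1a2, the alpha 2 chain of type I, stood at 8.11 in DMSO, 8.07 in Senexin B, 7.96 in pLKO.1 and 7.40 in shCDK8. It was lowest in shCDK8, as the brighter one was at 10.80, 11.01, 10.91 and 10.57. The 2 probe sets gave -0.57 and -0.34 for shCDK8 minus pLKO.1. With Senexin B they went apart, at -0.04 and 0.21, so the small difference of Col1a2 there depended on the probe set.

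Several fibril genes shared an order of the arrays, noticed after their values were seen. Col1a1, Col1a2 (by its brighter probe set only), Col3a1, Col5a2 and Col11a2 were highest in Senexin B and lowest in shCDK8. The same held for Col9a1, Col9a3, Col12a1, Col22a1 and Col6a3. These 10 of 37 genes are 27% of the collagen genes, beside 11.4% of all genes above the limit. For most of them the steps were small: Col1a1 ran from 8.98 in shCDK8 through 9.06 in DMSO and 9.15 in pLKO.1 to 9.29 in Senexin B, and Col5a2 from 6.23 through 6.39 and 6.50 to 6.63. The spread between cultures of 1 group is unknown here. Between the control arrays 21 of 37 collagen genes lay above 0 beside 44.3% of all genes, with a median of 0.01, and Col18a1 (0.54) and Col28a1 (-0.51) differed most.

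Of 41 listed genes for hydroxylation, folding, secretion, propeptide cleavage and crosslinking 37 were measured and 30 were above the limit, and 1 of these (3.33%) was 2-fold apart with Senexin B and none in shCDK8. Of all genes above the limit 1.35% were 2-fold apart in at least 1 of these comparisons, and a share that rests on 1 gene does not set the list apart. Their median was -0.07 with Senexin B and 0.12 in shCDK8. P4hb, a subunit of prolyl 4-hydroxylase, spanned 12.01 to 12.09 over the arrays, and Serpinh1, the collagen chaperone HSP47, 10.88 to 11.02. The gene past 2-fold was Tgm2, which encodes a transglutaminase that crosslinks matrix proteins, at 8.47 in DMSO, 9.57 in Senexin B, 8.40 in pLKO.1 and 7.97 in shCDK8. Senexin B was again the high array, by 1.11 over DMSO and 1.17 over pLKO.1. Lower by at least 1.5-fold with Senexin B were Pcolce2, an enhancer of procollagen cleavage (-0.61), and Loxl4, a lysyl oxidase (-0.60). Against pLKO.1 they differed by -0.45 and -0.63, so Pcolce2 fell short of 1.5-fold there. In shCDK8 Mia2, which serves export from the endoplasmic reticulum, was 0.64 higher, from a pLKO.1 level under the limit. That difference became 0.36 with low levels raised to the limit, and against DMSO it was 0.23, so it depended on the control.

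All 11 measured collagen receptors were above the limit, beside 64.3% of all named genes. Lair1 reached it only in Senexin B, at 6.27. None of the 11 was 1.5-fold apart in either comparison, where 6.83% of all genes were, so with 11 genes the count says little about receptors. Their medians were 0.12 and 0.03. Ddr2, a receptor kinase for fibrillar collagen, spanned 11.57 to 11.71. Among the collagen-cleaving enzymes Mmp13, Mmp9, Mmp2, Mmp14 and Ctsk were above the limit. Ctsk, cathepsin K, stood at 6.76 in DMSO, 7.98 in Senexin B, 6.63 in pLKO.1 and 6.20 in shCDK8, an order like that of Col12a1. Mmp2 was 2.08 higher with Senexin B, while the collagenase gene Mmp13 was at -1.52 there and at -3.17 in shCDK8. Mmp9, a gelatinase, differed by -0.59 and -1.06 in these comparisons, and Mmp14, a membrane-bound collagenase, by 0.64 and 0.48. Senexin B minus pLKO.1 was -0.38 for Mmp9 and 0.15 for Mmp14, so the 0.64 of Mmp14 depended on the control. For Mmp2 it was 1.71, and the DMSO level of Mmp2, 5.97, was just under the limit.

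**Figure D4:**
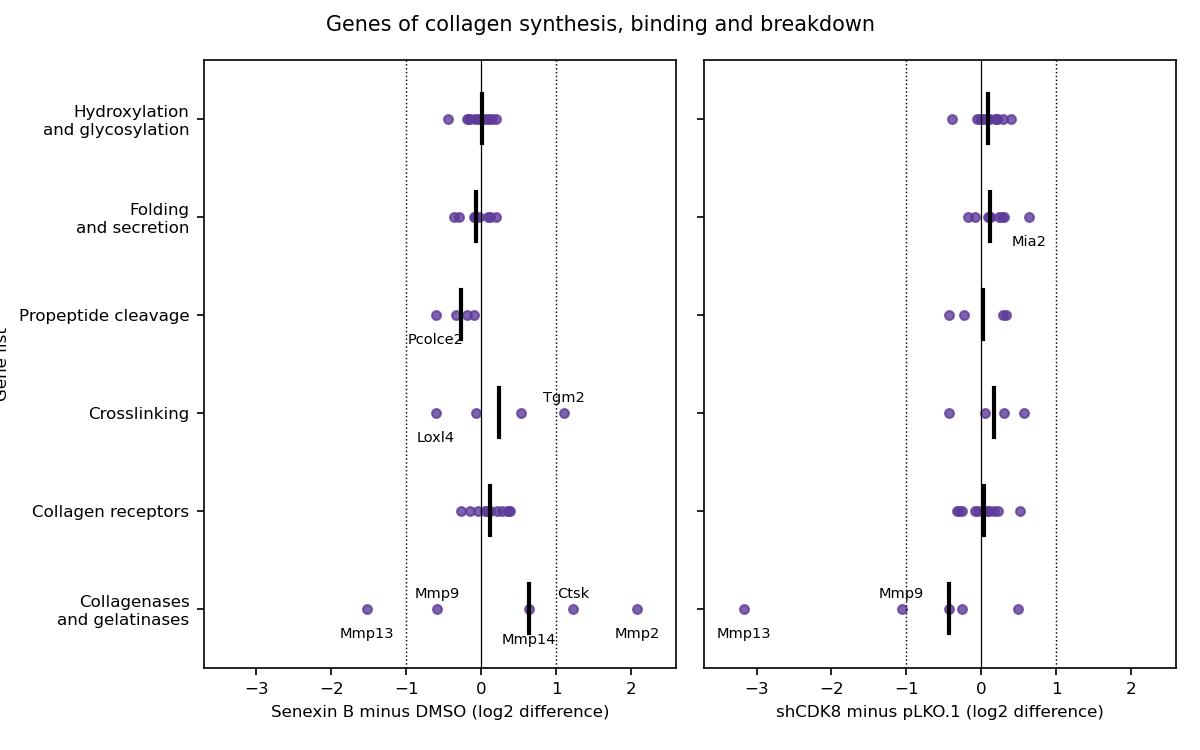
Log2 difference (horizontal axis) of the genes above the limit in 6 lists of collagen synthesis, binding and breakdown, for Senexin B minus DMSO (left) and shCDK8 minus pLKO.1 (right), with 1 point per gene, a black bar at each list's median and dotted lines at 2-fold. Genes at least 1.5-fold apart are named; Tgm2 is the 1 gene past 2-fold outside the enzymes of breakdown.

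Fibroblast markers other than collagens differed on the same arrays. Of 8 listed 7 were above the limit. The mean log2 level of all 8 was 7.27 in DMSO, 8.09 in Senexin B, 7.43 in pLKO.1 and 7.14 in shCDK8. On these arrays 5, 6, 6 and 5 of the markers reached the limit. Dcn, Pdgfrb and Pdgfra were 2.29, 1.49 and 1.24 higher with Senexin B, while Fap differed by -0.46. Dpt, Pi16 and Thy1 were 0.35, 0.32 and 0.21 higher. Of the 7 above the limit 3 were thus 2-fold higher, beside 0.687% of all genes above it. In shCDK8 Pdgfrb differed from pLKO.1 by -1.25, Fap by -0.94 and Dcn by -0.82, and Pdgfra by 0.39. From DMSO these genes differed by -1.07, -0.42, -0.24 and 0.53, so the sizes for Fap and Dcn depended on the control. Thy1, Dpt and Pi16, the last under the limit on 3 arrays, differed from pLKO.1 by 0.30, -0.01 and 0.05. Over the 7 markers above the limit the median in shCDK8 minus pLKO.1 was -0.01, with 3 above 0 and 4 below. Fap was under the limit on 3 arrays, with 6.41 in pLKO.1. Lum stayed under the limit on all 4 arrays, at 4.56 in DMSO and 5.62 in Senexin B, a difference of 1.06. Their part in the collagen differences was not tested. In RNA of whole cultures, a change in the number of cells of a type and in RNA per cell cannot be told apart.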

How the data were processed

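The authors deposited log2 expression values, with a value for every probe set on every array. The submitters' processing notes name RMA and Affymetrix Expression Console, without versions or settings. RMA equalizes array distributions, so a shift common to all genes is lost, and it compresses differences near background.

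Genes were assigned to probe sets by the platform annotation, and 23521 of 41345 probe sets had exactly 1 symbol. Where a gene had several, the brightest by its mean across the 4 arrays was kept. Differences were taken on the log2 scale, with no test, since each group had 1 array. Collagen genes above the limit and at least 1.5-fold apart in a comparison were given on every array, and so were others that a result turned on. From the other lists the genes at least 1.5-fold apart were named, at most 6 per list. The members and lists were chosen with earlier results of these data known. The computation was tested on simulated data. Promoters came from RefSeq, with the start at the gene's annotated end preferred. Python 3.11.15, pandas 2.3.3, numpy 2.4.6 and statsmodels 0.14.6 were used.

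As alternatives, the filter was dropped, set at the 60th percentile or taken from receptor genes. Arrays were quantile normalized again, or a lowess trend (span 0.3) was subtracted. Probe sets were averaged, or genes with several left out. The threshold was 1.5-fold or 3-fold, low levels were raised to the limit, the other control array was used, and means replaced medians. A value was counted as moved from 0.1 on the log2 scale, and a count beyond a factor of 1.5.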

Additional observations from a re-analysis of the deposited data

How the results depend on the processing

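Of 71 recomputed counts and medians 67 stayed within these bounds. This total is no measure of stability, since a count of 0 could not move with a stricter threshold or filter. The median with Senexin B, 0.19, also counted as unmoved at 0.10 with the other control array. With the limit at the 60th percentile 19 collagen genes were above it. At 3-fold the count higher with Senexin B was 2 and the count lower in shCDK8 was 0, and at 1.5-fold the count higher in shCDK8 was 1. The median in shCDK8 of -0.02 lay on the other side of 0 with the other control array (0.06) and without Col6a1, Col6a2, Col6a3 and Col12a1 (0.01), each within 0.1 of it. Of 70 recomputed differences of single genes 15 moved, 10 of them with the other control array, and no difference past 2-fold changed sign. The mean of both probe sets of Col6a1 gave 1.14 in place of 1.40. The median with Senexin B was 0.11 without Col6a1, Col6a2, Col6a3 and Col12a1, an alternative added after seeing the data. No paired analysis was possible because each group had 1 array and the labels carry no replicate numbers. With 1 array per group the spread between cultures is unknown, and genes near the limit of 5.98, among them Col6a3, Col4a4 and Col28a1, are measured with little signal over background.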
